A study of Mus musculus with 51 samples.

Results

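The spikes of 0.15 and 0.2 pmol per gene lie in the middle of a series of 2-colour spotted arrays that was made to evaluate ways of finding changed genes. They were chosen from the sample titles: 3 arrays at 0.15 pmol, 3 arrays at 0.2 pmol and, to set against them, the 6 arrays at 0 pmol, 12 of the 51 arrays in all. Every array carried RNA of CRL1606, a hybridoma made by fusing BALB/c mouse spleen cells with a mouse myeloma and grown in suspension in serum-free medium, in both of its channels. On the spiked arrays 100 genes had been added to channel 1 and another 100 to channel 2, each at the stated amount, and on the 0 pmol arrays none had. The labels do not name the spiked genes, do not say which channel is the numerator of the ratio, and do not say whether replicates are separate cultures. The p-values below therefore rest on variation among arrays that may be technical.

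A 2-colour array hybridises a pair of labelled samples to the same probes and reports the ratio of the 2 signals at each spot. When both samples are the same RNA, the ratio of an ordinary gene is expected near 1 and its log2 near 0, whatever its level. An added gene pulls its own probe away from 0, in one direction for one channel and in the other direction for the other. A hybridoma joins the antibody genes of a B cell to the unlimited growth of a myeloma, but a ratio of its RNA to itself shows no expression level, so the labelled cell type could not be checked against its markers.

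The 6 spiked arrays measured 16624 to 16772 of the 16896 spots, against 15986 to 16744 on the 6 arrays at 0 pmol. Before centring, the array medians ran from -3.33 to -0.94 on the spiked arrays and from -3.11 to -1.07 at 0 pmol. All thus lay below 0, and log2 ratios near 0 below are relative to the median of each array. Every probe has a pair of spots, and the members of a pair correlated at 0.851 to 0.965 on the spiked arrays and at 0.617 to 0.805 on the 0 pmol arrays. These correlations include the spiked features, whose large ratios can raise them on the spiked arrays alone. They are therefore no like measure of quality for the 2 groups, and the part of the spikes in the gap was not tested. The 0 pmol arrays at replicates 4 to 6 stood apart, with 138 to 151 spots at the upper limit of the values, against at most 14 on any of the other 9 arrays. Outside the candidate spikes described below, the 6 spiked arrays correlated with the 0 pmol arrays at -0.04 to 0.21 across features, and with each other at 0.44 to 0.87. A clustering of all 51 arrays into 6 sets (sets A to F) over the same features placed 0.15 pmol replicate 1 and 0.2 pmol replicates 1 and 2 in set C, 0.15 pmol replicates 2 and 3 and 0.2 pmol replicate 3 in set A, and all 6 arrays at 0 pmol in set D. No set held both a spiked and an unspiked array of this comparison, so spike and array set cannot be told apart within these 12 arrays.

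The highest log2 ratio of a spiked array lay between 6.24 and 8.25. The feature at spot 8362, which has no gene symbol, had log2 ratios of 7.13, 7.54 and 7.68 at 0.15 pmol and of 6.57, 6.24 and 8.16 at 0.2 pmol, against 0.05, -2.60, -1.27 and -1.49 on the 4 arrays at 0 pmol that measured it. Its difference, 8.55 with a standard error of 0.94, was the largest of the positive ones (limma adjusted p = 3.07e-09). Zfp292, a zinc finger transcription factor, came next among the leading features. Its probe at spot 12102 had log2 ratios of 6.37, 7.59 and 7.93 at 0.15 pmol and of 5.95, 5.24 and 8.25 at 0.2 pmol, against -1.0, -0.87, -0.67, -0.30, -0.22 and -0.20 at 0 pmol. The lowest spiked array was thus more than 5 log2 units above the highest unspiked one, and the mean of 6.89 ± 1.21 (SD, n = 6) exceeded the 0 pmol mean of -0.54 ± 0.35 (SD, n = 6) by 7.43 with a standard error of 0.75 (limma adjusted p = 3.59e-10). Among the 6 spiked arrays the lowest pair of Zfp292 values belonged to 0.2 pmol replicates 1 and 2, and the highest to 0.2 pmol replicate 3.

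Galnt13, an enzyme that puts the first sugar on O-linked glycans, had log2 ratios of 6.15, 6.06 and 7.19 at 0.15 pmol and of 5.88, 5.11 and 6.67 at 0.2 pmol, against -1.21 to -0.11 on the 5 arrays at 0 pmol that measured it. It differed by 6.80 with a standard error of 0.54 (limma adjusted p = 1.46e-12). Tlr1, a receptor for bacterial lipopeptides, had log2 ratios of 4.35, 5.99 and 6.45 at 0.15 pmol and of 4.08, 4.25 and 6.91 at 0.2 pmol, and none above -0.32 at 0 pmol. The Tlr1 values fell into a high and a low group of 3 arrays each, and the high group held 0.15 pmol replicates 2 and 3 and 0.2 pmol replicate 3, the arrays of set A.

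The other positive leading features differed by 5 to 6 log2 units. They were Cltb, a light chain of clathrin (5.68), Cpsf6, a subunit of the factor that cleaves pre-mRNA (5.60), Sspn, a membrane protein of the dystrophin complex (5.57), and Mreg, a regulator of melanosome transport (5.54). Cald1, an actin-binding regulator of contraction (5.41), the feature without a symbol at spot 8280 (5.39), Eif4a1, the RNA helicase of translation initiation (5.24), and Slc2a5, the transporter of fructose (5.18), followed. The difference of Cald1 came in part from the unspiked arrays, with means of 4.09 on the spiked arrays and -1.33 at 0 pmol. Slc2a5 had the smallest spread of these 8 over the spiked arrays, with 4.40 to 5.68, against -0.83 to 0.28 on the 0 pmol arrays. Cpsf6 was uneven, with 4.26 and 4.76 at 0.2 pmol replicates 2 and 1, and 7.38 at 0.2 pmol replicate 3.

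On the negative side, Iqgap2, a scaffold that binds actin and calmodulin, had the largest difference. Its probe at spot 7941 had log2 ratios of -5.33, -4.49 and -4.14 at 0.15 pmol and of -5.11, -3.98 and -4.80 at 0.2 pmol, against 0.04, 0.55, -0.05, 0.57, 0.77 and 0.61 at 0 pmol. The groups did not overlap, and the means of -4.64 ± 0.53 and 0.41 ± 0.33 (SD, n = 6 each) differed by -5.06 with a standard error of 0.42 (limma adjusted p = 1.46e-12). Zfp330, a zinc finger protein, had log2 ratios of -6.30, -4.49 and -4.24 at 0.15 pmol and of -4.74, -4.60 and -4.75 at 0.2 pmol, against 0.15, 0.16, 0.31, 0.25, 0.25 and 0.00 at 0 pmol. The 3 values at 0.2 pmol were close together, and 0.15 pmol replicate 1 lay apart from the other 5 spiked arrays. Zfp330 differed by -5.04 with a standard error of 0.60 (limma adjusted p = 1.79e-08).

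Nr3c1, the glucocorticoid receptor (-4.66), and Fem1c, a receptor that selects substrates of a ubiquitin ligase (-4.66 at spot 15721), came next. Papola, the poly(A) polymerase (-4.60), Dock5, an activator of the GTPase Rac (-4.55), Cmpk1, a kinase of UMP and CMP (-4.53), and Prkaca, the catalytic subunit of protein kinase A (-4.51), followed. The features without a symbol at spots 13160 (-4.50) and 6345 (-4.41), Sft2d1, a protein of vesicle transport (-4.34), and Nostrin, which controls the traffic of endothelial nitric oxide synthase (-4.32), completed the 12. Dock5 was not measured on 0.15 pmol replicate 3, and its other 5 spiked values ran from -5.55 to -2.84, against 0.01 to 0.53 at 0 pmol. For each of the 24 leading features, spiked and unspiked arrays did not overlap, as was so for 15.5% of all features tested, and the highest limma adjusted p was 2.30e-05. The 24 were picked by the size of this difference. With array set as a term 12 of the 24 passed, and all 24 kept their sign. All 24 were also among the candidate spikes, which had been chosen on other arrays.

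**Figure D1:**
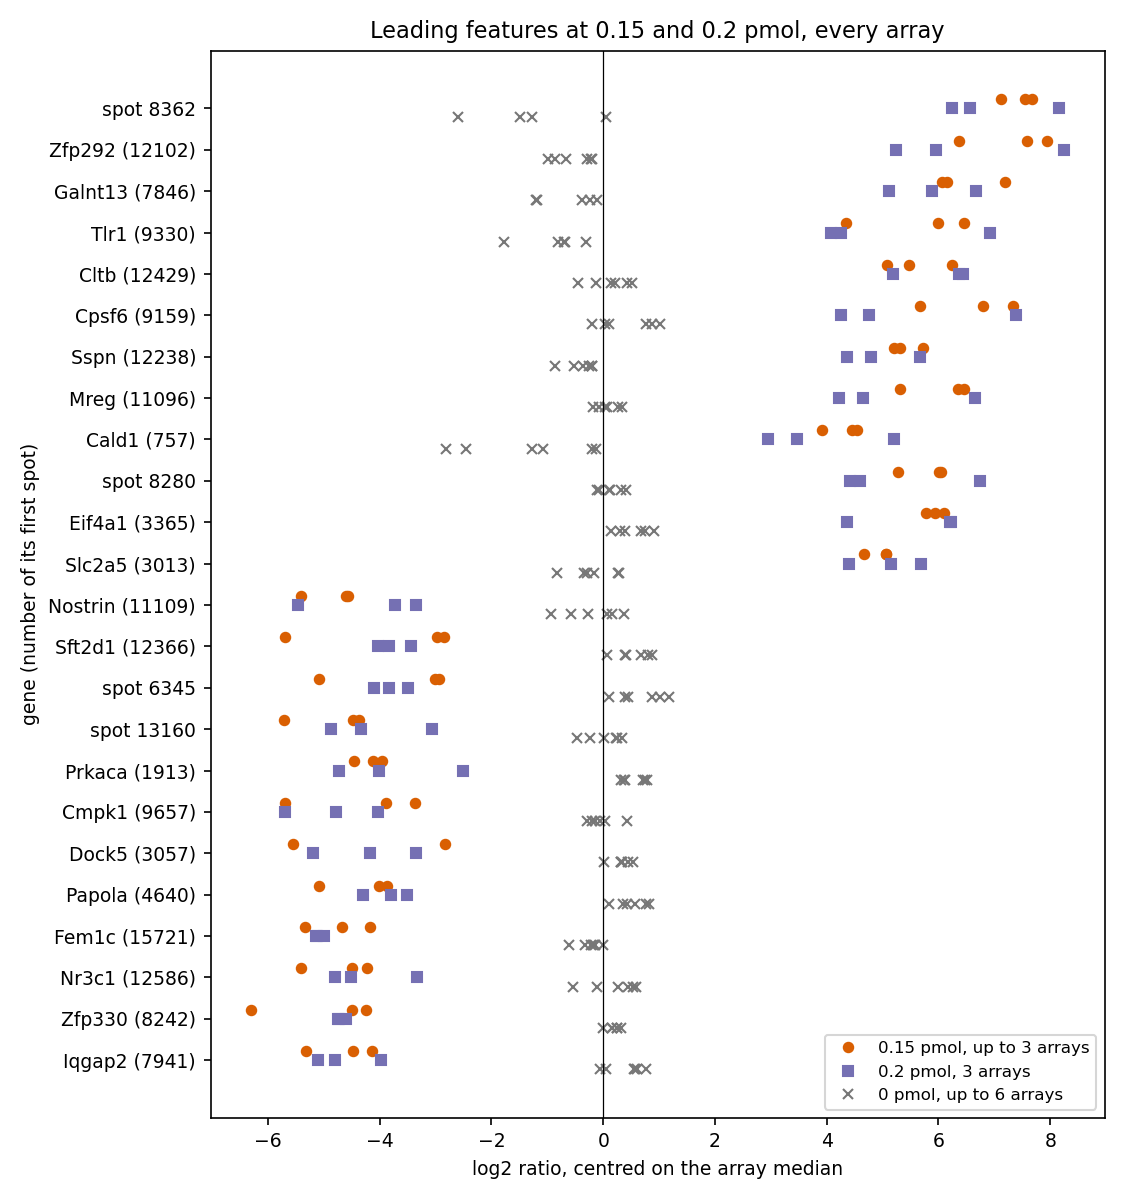
Log2 ratio (x axis, centred on the array median) of the 24 leading features on every array that measured them, with circles for 0.15 pmol, squares for 0.2 pmol and crosses for 0 pmol. The spiked arrays lie apart from the 0 pmol arrays in each row, and the circles and squares overlap or adjoin.

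Across the whole table, 1523 of 7907 features tested differed between the pooled spiked arrays and the 0 pmol arrays at a limma adjusted p under 0.05, which is 19.3%. Of these, 943 differences were positive (11.9% of those tested) and 580 negative (7.34%). Differences of at least 2 log2 units, a 4-fold ratio, were called for 254 features (3.21%), 145 positive and 109 negative. Spiked and unspiked arrays did not overlap for 1227 features (15.5%). The number of calls is far above the 200 genes that the labels give as spiked, and it moved with the settings. With array set as a term it was 135 (84 positive and 51 negative), of which 52 were among the 1523. That fit joins the spiked to the unspiked sets through arrays of other amounts, such as the 0.1 pmol arrays that lie in sets C and D. Without centring of the arrays it was 389, of which 295 were positive and 94 negative, with the median of all features at 0.45 in place of 0.05. With array weights it was 3041 (1723 positive and 1318 negative), and against 0 pmol replicates 1 to 3 alone 652.

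Since the labels do not name the spiked genes, candidates were taken from the 3 arrays at 2 pmol, the largest amount: the 100 highest and the 100 lowest mean log2 ratios among features with the same sign on each of the 3. No array of 0, 0.15 or 0.2 pmol entered that choice. The positive candidates had means of 3.99 to 9.76 at 2 pmol, and the negative ones of -7.49 to -2.44. In the pooled comparison 178 of the 200 candidates passed the test with the sign they have at 2 pmol, 88 positive and 90 negative, and none passed with the opposite sign. That is 89% of the candidates, against 19.3% of all features tested. The candidates that passed had a median absolute difference of 3.58, against 1.02 for the 1345 other features that passed. With array set as a term, 36 of the 200 candidates passed, while 186 kept the sign of the difference they have at 2 pmol, with medians of 1.65 for the positive and -2.27 for the negative candidates and a median standard error of 0.95.

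Fewer candidates passed in the lower ranks at 2 pmol. Of the 25 highest positive candidates all 25 passed, and of the following bands of 25 the counts were 23, 21 and 19. On the negative side the counts from the lowest band of means upward were 24, 25, 21 and 20. The median log2 ratio of the spiked arrays was 5.17 in the first positive band and 2.67 in the last, and -4.10 in the first negative band and -1.17 in the last. Over all 100 positive candidates the median was 4.05 at 0.15 and 0.2 pmol together, against 0.17 at 0 pmol, and over the 100 negative candidates -3.11, against 0.04. Both stayed nearer to 0 than the medians of 5.50 and -4.01 at 2 pmol, where the candidates had been chosen.

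Of the 22 candidates that did not pass, 12 were positive and 10 negative, and some of them had been far from 0 at 2 pmol. Ino80, a chromatin remodelling ATPase, had a mean of 6.24 at 2 pmol but log2 ratios of 0.06, -0.39 and -0.12 at 0.15 pmol and of -0.44, 0.41 and -0.56 at 0.2 pmol, against -0.35 to 0.17 at 0 pmol. The values of Ino80 overlapped in full, and the difference was -0.17 with a standard error of 0.67 (limma adjusted p = 0.888). Tcra, the alpha chain of the T-cell receptor, had a mean of -6.21 at 2 pmol, and its spiked log2 ratios ran from -1.07 to 0.42, against -0.28 to 0.79 at 0 pmol. Its difference was -0.67 with a standard error of 0.88 (limma adjusted p = 0.634). Cnot10, a subunit of the deadenylase complex CCR4-NOT, had a difference of 0.47, Polh, the DNA polymerase that copies past ultraviolet damage, of 0.68, and Acp2, a lysosomal phosphatase, of 0.51, each with a mean above 5 at 2 pmol. On the negative side Rasa1, which switches off RAS, had a difference of 0.34, 1700025G04Rik of -0.08 and Traf4, an adaptor of receptor signalling, of -1.24.

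Many of these candidates lay beside another candidate on the array. Of the 22 that did not pass, 10 (45.5%) were printed next to a candidate of the same sign, against 32 of the 178 that passed (18.0%). Ino80 at spot 9158 adjoins the strong positive feature of Cpsf6 at spot 9159. Cnot10 at spot 9379 and Polh at spot 9423 lie in print block 27 and column 7, the block and column of Cpsf6. Tcra at spot 13116 lies in print block 38 and column 4, the same block and column as the leading negative feature at spot 13160. Rasa1 and 1700025G04Rik lie in block 38 and column 7 with the negative candidate Spag5 (-3.03). These positions are given as a description of the layout, and their part in the values at 2 pmol was not tested.

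The question of whether 0.15 and 0.2 pmol differ from each other was asked by setting one against the other, in the model of all 51 arrays. No feature passed at a limma adjusted p under 0.05, and 59 of 7907 (0.746%) had an unadjusted p under 0.05. Where no feature differs, a share of about 0.05 would be expected under that limit, more than was seen. The p-values thus ran high, and the absence of calls does not show that the amounts gave equal values. The fit of all 51 arrays takes its spread from every amount, with a median within-amount SD of 0.49, while the median SD was 0.30 over the 3 arrays at 0.2 pmol and 0.29 over the 3 arrays at 0.15 pmol. In fits of the 6 spiked arrays alone, which were added after seeing the data, again none passed, with 77 features under an unadjusted p of 0.05, or 209 with array set as a term. With weights per array 586 passed. For Zfp292 the difference of 0.2 minus 0.15 pmol was -0.82 with a 95% interval of -2.94 to 1.31, and for Iqgap2 it was 0.02 with an interval of -1.17 to 1.20. For Zfp330 it was 0.31, with an interval of -1.39 to 2.02. The intervals of these genes thus leave room for differences as low as -2.94 and as high as 2.02 log2 units.

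Over the positive candidates the median log2 ratio was 3.93 at 0.2 pmol and 4.11 at 0.15 pmol, and 72 of the 100 were lower at 0.2 pmol. Over the negative candidates the medians were -3.12 at 0.2 pmol and -3.01 at 0.15 pmol, and 50 of 100 were lower. The means at the 2 amounts correlated across features at 0.96 over the positive and 0.95 over the negative candidates, which are not independent points since they share arrays. The direction of the difference turned with the array set. Within set A, where 0.2 pmol replicate 3 stands against 0.15 pmol replicates 2 and 3, 86 of 100 positive candidates were higher and 85 of 100 negative candidates lower at 0.2 pmol, so both lay farther from 0 there. Within set C, where 0.2 pmol replicates 1 and 2 stand against 0.15 pmol replicate 1, 68 of 100 positive candidates were lower and 86 of 100 negative candidates higher at 0.2 pmol. Median differences were 0.45 and -0.28 in set A and -0.26 and 0.46 in set C for positive and negative candidates, and these differences within sets were not tested.

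**Figure D2:**
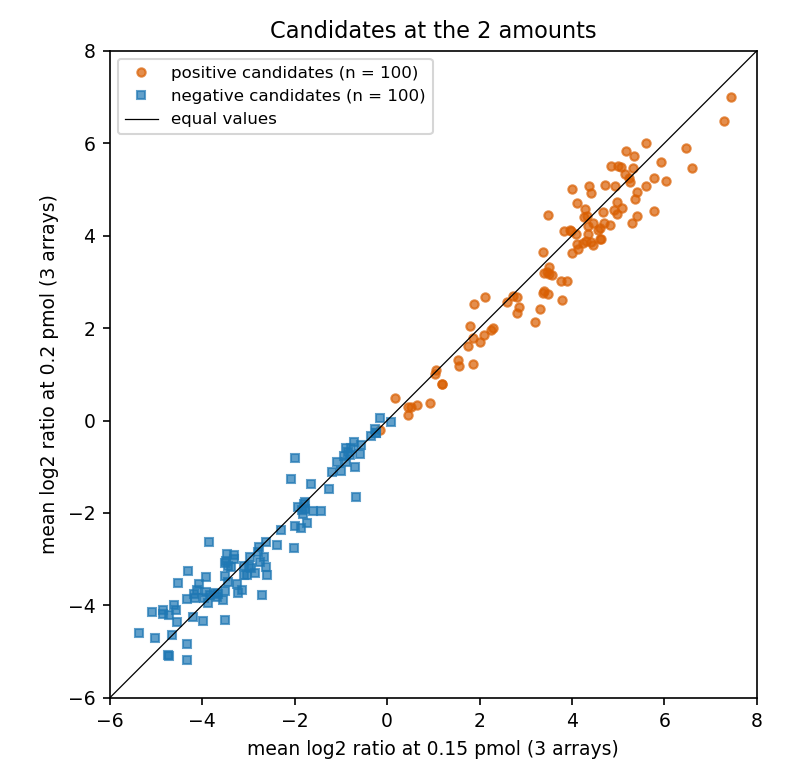
Mean log2 ratio at 0.2 pmol (y axis) against that at 0.15 pmol (x axis) of the 100 positive and 100 negative candidates, with a line of equal values. The points follow the line, and 72 of the 100 positive candidates lie below it.

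The arrays of set A had the higher medians. Over the positive candidates they were 4.19 and 4.37 at 0.15 pmol replicates 2 and 3 and 4.74 at 0.2 pmol replicate 3, while the 3 arrays of set C had 3.73, 3.45 and 3.48. The medians of the negative candidates were also higher, and so nearer to 0, in set A, with -2.66, -2.43 and -2.93 on the arrays of set A and -3.75, -2.94 and -2.99 on those of set C. On the 0 pmol arrays the medians lay between 0.07 and 0.31 for the positive candidates and between -0.02 and 0.26 for the negative ones.

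Each amount was also set against 0 pmol apart. At 0.15 pmol 845 of 7912 features passed (10.7%), 537 positive (6.79%) and 308 negative (3.89%). At 0.2 pmol 704 of 7915 passed (8.89%), 477 positive (6.03%) and 227 negative (2.87%). These 2 comparisons share the 0 pmol arrays, so their counts are not independent. Among the candidates 164 of 200 passed at 0.15 pmol and 160 of 200 at 0.2 pmol, all with the sign of 2 pmol. Zfp292 differed from 0 pmol by 7.84 at 0.15 pmol and 7.02 at 0.2 pmol, Iqgap2 by -5.07 and -5.05, and Zfp330 by -5.20 and -4.88. Among the 24 leading features the highest limma adjusted p was 0.0024 at 0.15 pmol and 0.00115 at 0.2 pmol. The counts moved with single arrays: at 0.15 pmol 426 features passed without replicate 2 and 381 without replicate 3, and at 0.2 pmol 359 without replicate 2 and 456 without replicate 3. Without centring, 390 passed at 0.15 pmol (334 positive and 56 negative, with the median of all features at 0.90) and 181 at 0.2 pmol (92 and 89). With array set as a term 78 passed at 0.15 pmol and 105 at 0.2 pmol, and with array weights 3066 and 2373.

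The candidates were then summarised as 1 value per array, the candidate separation. For each array it takes the median over positive candidates, subtracts the median over negative candidates and divides the result by 2. At 0.15 pmol the 3 arrays had separations of 3.74, 3.42 and 3.40, and at 0.2 pmol of 3.19, 3.24 and 3.83. The 0 pmol arrays lay between -0.02 and 0.09. The lowest spiked array thus lay above every unspiked array. The means of 3.47 ± 0.26 and 0.04 ± 0.03 (SD, n = 6 each) differed by 3.43 (exact two-sided permutation test, p = 0.00216, the smallest this design can give, and 0.013 after adjustment over 6 comparisons). Between the amounts it was 3.42 ± 0.36 at 0.2 pmol and 3.52 ± 0.19 at 0.15 pmol (SD, n = 3 each), a difference of -0.10 that was smaller than the spread of either (exact permutation p = 0.6, where 0.1 is the smallest possible). That difference turned positive, to 0.01, when arrays were scaled to one spread.

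Set between their neighbours, the 6 spiked arrays had a mean separation nearer to the 0.25 than to the 0.1 pmol mean. The separation was 3.47 ± 0.26 at 0.15 and 0.2 pmol together and 3.40 ± 0.60 at 0.25 pmol (SD, n = 6 each), which did not differ beyond the spread (exact permutation p = 0.784). At 0.25 pmol, replicates 1 to 3, in set E, had separations of 2.86, 3.16 and 3.29. Replicates 4 to 6 at 0.25 pmol had 4.09, 2.81 and 4.17 and lie in sets C and A with the spiked arrays. Against 0.1 pmol, with 2.56 ± 0.85 (SD, n = 6), the difference was 0.91 (exact permutation p = 0.0433, adjusted p = 0.0649), which fails the adjustment. The 0.1 pmol arrays were not alike: the difference was 0.15 from their replicates 1 to 3 (exact permutation p = 0.417) and 1.68 from their replicates 4 to 6 (exact permutation p = 0.0119, the smallest possible). This split was not among the comparisons adjusted together, so its p-values are unadjusted and are given as description. Replicates 4 to 6 at 0.1 pmol had separations of 1.91, 1.61 and 1.87 and lie in set D with the 0 pmol arrays. Their paired spots correlated at 0.40 to 0.52, against 0.94 to 0.96 at replicates 1 to 3, and they missed up to 9.29% of their spots. The part of the array set and of array quality in this difference was not tested.

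**Figure D3:**
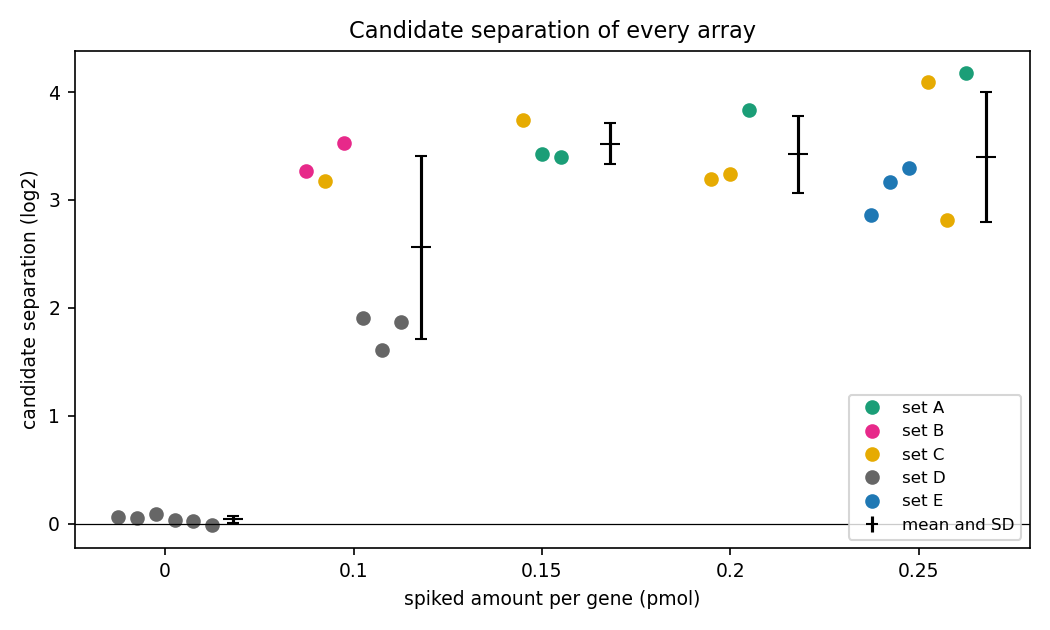
Candidate separation (y axis, log2) of every array at 0, 0.1, 0.15, 0.2 and 0.25 pmol, coloured by array set, with the mean and SD of each amount as a bar beside its arrays. The 6 arrays at 0.15 and 0.2 pmol lie between 3.19 and 3.83, and the 3 arrays at 0.1 pmol in set D lie below 2.

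Feature by feature, 164 of 7907 (2.07%) differed between the pooled spiked arrays and 0.1 pmol, 126 positive (1.59%) and 38 negative (0.481%), and 16 of them were candidates. Tmx3, a thioredoxin-related protein of the endoplasmic reticulum, averaged 3.11 ± 1.34 at 0.15 and 0.2 pmol and -0.11 ± 1.01 at 0.1 pmol (SD, n = 6 each), a difference of 3.21 (limma adjusted p = 0.0069). Las1l, a factor of ribosome assembly, differed by 3.00 (limma adjusted p = 0.000974) and Usf1, an E-box transcription factor, by 2.43 (limma adjusted p = 0.0228). The most negative were the features without a symbol at spots 6345 (-2.53) and 12850 (-2.44) and Dact1, a regulator of Wnt signalling, at spot 5478 (-2.50). This count also moved with the settings: it was 5 without centring (2 positive and 3 negative, with the median of all features at -0.15 in place of 0.08), 312 with arrays scaled to one spread, 1050 with array weights, 78 with array set as a term, and between 27 and 86 when any single array was left out of 0.15 pmol replicates 2 and 3 and 0.2 pmol replicates 1, 2 and 3. Against 0.25 pmol no feature passed in limma, with 283 (3.58%) under an unadjusted p of 0.05, 4 passing with array weights and 1 with array set as a term.

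Another probe outside the candidates was present for 33 genes whose candidate probe had passed. These 46 other probes had a median absolute difference of 0.35, against 3.65 for the 34 candidate probes of the same genes and 0.39 over all features tested. Of the 46, 9 passed (19.6%), close to the 19.3% of all features tested, and 1 differed by 4-fold or more. Zfp292 at spot 2524 had log2 ratios of 0.74, 0.75 and 0.97 at 0.15 pmol and of 0.42, 0.31 and 1.19 at 0.2 pmol, against 0.24 to 1.23 at 0 pmol, while the probe of Zfp292 at spot 12102 differed by 7.43. Its groups overlapped, and the difference was -0.04 with a standard error of 0.29. Iqgap2 at spot 10827 differed by 0.02 with a standard error of 0.22 and Galnt13 at spot 11444 by -0.10 with a standard error of 0.40. Papola at spot 10401 differed by 0.17 and Nr3c1 at spot 10663 by 0.52, and none of these passed. Sft2d1 at spot 10792 did pass, with 0.94 where its candidate probe differed by -4.34. Of the 9 other probes that passed, 6 had the sign of the candidate.

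The exception above 4-fold was Smpd4, a sphingomyelinase, whose probe at spot 16377 differed by -2.64 where the candidate probe at spot 9700 differed by -3.86. A few genes had more than 1 candidate probe. Both probes of Fem1c were negative, with -4.66 at spot 15721 and -4.29 at spot 2642. Cald1 carried a positive candidate at spot 757 (5.41) and a negative one at spot 12991 (-1.10), and Hk2, the hexokinase of glycolysis, a positive one at spot 9437 (4.63) and a negative one at spot 15849 (-1.90). Eif4a1 and its near-identical paralog Eif4a2 also had opposite signs, with 5.24 at spot 3365 and -3.93 at spot 11052. Any cross-hybridisation between the 2 was not tested. The sequences of the probes are not used here.

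**Figure D4:**
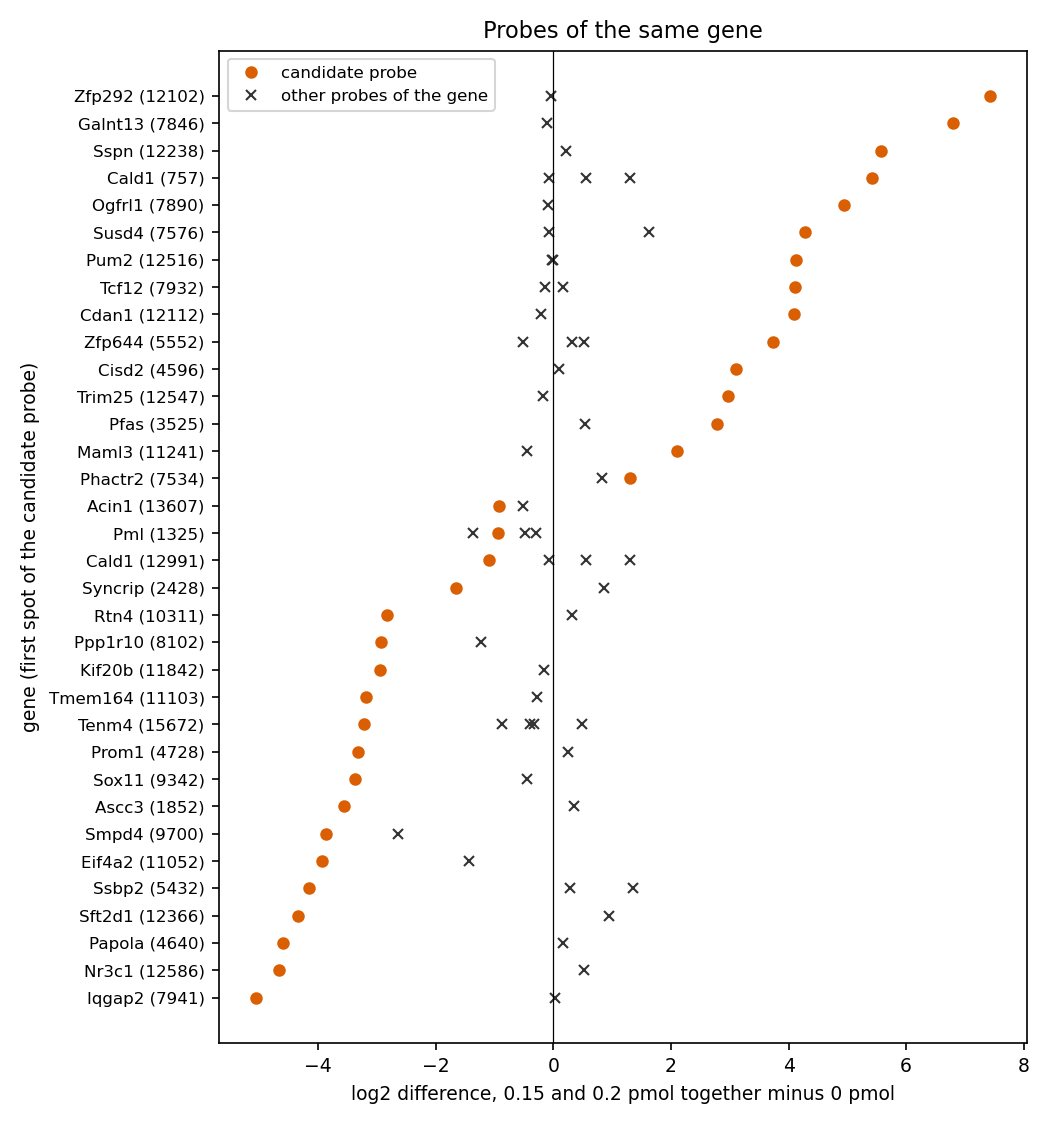
Log2 difference of the pooled 0.15 and 0.2 pmol arrays minus 0 pmol (x axis) for candidate probes (circles) and the other probes of the same gene (crosses), one row per candidate probe. The crosses gather around 0, with Smpd4 as the one cross beyond 2 log2 units.

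The 1345 features that passed outside the candidates were split by the size of their difference. At 4-fold or more there were 104, and for 46 of them the mean at 2 pmol was also at least 4-fold and of the same sign, for 43 it had the same sign and was smaller, and for 15 it had the opposite sign. Usf1 had log2 ratios of 5.55, 4.31 and 4.73 at 0.15 pmol and of 3.29, 3.77 and 4.88 at 0.2 pmol, against -0.42 to 0.01 at 0 pmol, and its mean of 3.89 at 2 pmol lay just under the lowest positive candidate. Its difference of 4.63 was the largest of the positive features outside the candidates that have a symbol (standard error 0.57, limma adjusted p = 3.34e-08). Tcea3, a transcription elongation factor (4.48), Fhod1, a formin that nucleates actin (4.40), and Ctbp2, a corepressor (4.24), followed. On the negative side were Slc25a44, a mitochondrial carrier (-4.31), Gm5124 (-3.95), Plpbp, a protein that binds vitamin B6 (-3.53), and 2210016L21Rik (-3.37). Slc25a44 had log2 ratios of -4.89 to -3.87 on the spiked arrays and of -0.25 to 0.27 at 0 pmol. It was no candidate because its log2 ratios at 2 pmol were -6.59, 0.08 and -7.05, with differing signs.

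The remaining 1241 differed by less than 4-fold. For 780 of these 1241 the 0 pmol mean lay farther from 0 than the spiked mean, as it did for 12 of the 104 larger ones and 3 of the 178 candidates. Palld, an actin-bundling protein, had log2 ratios of -0.93 to 0.07 on the spiked arrays and of -1.42, -1.28, -3.71, -3.03, -2.42 and -1.21 at 0 pmol. It differed by 1.82, with a standard error of 0.48 (limma adjusted p = 0.00599). Here the unspiked arrays were the ones away from 0. Myo5b, a motor of vesicle transport (1.71), and Emilin2, a glycoprotein of the extracellular matrix (1.51), also had 0 pmol means farther from 0. So did Cep97, a centriole protein (-1.60), the kinase Stk39 (-1.60 at spot 3495) and the antisense transcript Emx2os (-1.32). With array set as a term Emx2os was at 0.28 and no longer called. For Myo5b and Emilin2 the groups overlapped, with -0.33 and -0.36 on 0 pmol replicate 1. The 0 pmol mean of Cep97 leaned on replicates 2 and 6 (4.69 and 2.57). Against 0 in place of the 0 pmol arrays, Palld was at -0.36, Myo5b at -0.19, Emilin2 at -0.46 and Cep97 at 0.09, each with the other sign. The named genes were picked because their 0 pmol means lay farthest from 0, so that distance was fixed by the choice. The other sign follows wherever the spiked mean lies between 0 and the 0 pmol mean.

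Lists of genes that fit a hybridoma and the leading features were then read against the background of 19.3% of features passing, 11.9% positive and 7.34% negative. Of 98 probes for Zfp zinc finger proteins, 10 were positive and 6 negative (16.3%), near the background. Of its 6 candidates Zfp292, Zfp644 (3.73) and Zfp248 (3.33) were positive, Zfp330 and Zfp688 (-2.08) negative, and Zfp655 (0.42) did not pass. Of 49 probes for the actin cytoskeleton and its scaffolds, 9 were positive and 5 negative (28.6%), among them Sspn, Cald1 and Tln2, the focal adhesion protein talin 2 (3.24), and on the other side Iqgap2. Of 22 probes tested for pre-mRNA cleavage and splicing, 5 were positive and 3 negative (36.4%), with Cpsf6, the U1 protein Snrpa (3.51) and the splicing factor Prpf18 (1.75) positive and Papola negative. The medians of the 3 lists were 0.09, 0.13 and 0.16, against 0.05 over all features, and nothing particular to a list is read from these counts.

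Of 28 cell cycle probes, 3 were positive and 5 negative (28.6%). E2f4, a repressor in resting cells (4.81), and Cdkn2b, an inhibitor of the kinases Cdk4 and Cdk6 (4.41), were positive. Topbp1, which activates the replication checkpoint (-3.94), and Cdk6 at spot 1851 (-1.50) were negative. The differences of the Cdk6 probes did not agree, since spot 10300 passed with a positive difference (1.32) and spot 9301 did not pass (-0.35). At spot 10300 the spiked mean was -0.34, and the 0 pmol mean of -1.66 leaned on replicates 2 and 6 (-4.20 and -2.88). The groups overlapped there, with 0 pmol replicate 1 at -0.17. E2f4, Cdkn2b and Topbp1 were candidates. Among 15 probes for folding and secretion in the endoplasmic reticulum, the candidate Edem3, which sends misfolded glycoproteins to degradation, was the 1 that passed. Edem3 had log2 ratios of -3.80 to -2.43 on the spiked arrays, while 0 pmol replicate 3 lay at -4.39 and the other 5 arrays at 0 pmol between -0.70 and -0.06.

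Among 5 probes for immunoglobulin and plasma cell genes, Iglv1, a variable gene of the lambda light chain, was positive (1.06, but -0.24 and no longer called with array set as a term), and Tec, a kinase of B-cell signalling and a candidate, negative (-3.77). The median of that list ran from -0.33 to 0.71 on the spiked arrays and from -0.52 to 0.40 at 0 pmol. Of 7 probes for T cell, NK cell and myeloid markers 1 passed, Cd3e, a chain of the T-cell receptor complex, with 0.22 ± 0.20 (SD, n = 6) on the spiked arrays and -1.63 ± 0.65 (SD, n = 5) at 0 pmol. Among the 40 probes of tissue markers (liver, muscle, nerve, epithelium and stroma), 10 were positive and 4 negative (35.0%). They included the keratins Krt18, a candidate (3.78), and Krt13 (1.61), the collagen Col5a1 (1.87 at spot 15145, but -0.28 and no longer called with array set as a term) and the non-muscle myosin heavy chain Myh14 (-1.69). The median of that list was -0.02 to 0.11 on the spiked arrays and -0.40 to 0.03 on the 0 pmol arrays, and the part of any cell type in these differences was not tested.

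The position of the features in the print blocks, each of which has 22 columns, was then compared. Columns 20, 21, 7, 8 and 2, the 5 with most candidates, hold 24.2% of the features but 116 of the 200 candidates (58%), and 140 of the 254 features called at 4-fold or more. They also hold 43 of the 104 features called at 4-fold or more outside the candidates (41.3%), which the choice of candidates did not fix. Calls under 4-fold outside the candidates were nearly even, with 15.7% of features called so in these 5 columns and 16.2% in the other 17. The highest shares of calls outside the candidates were in columns 12 (27.2%) and 14 (26.7%). Block 27 held 17 candidates, among them Tlr1, Cpsf6, Krt18 and the uncalled Ino80, Cnot10 and Polh, and 6 blocks held none.

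**Figure D5:**
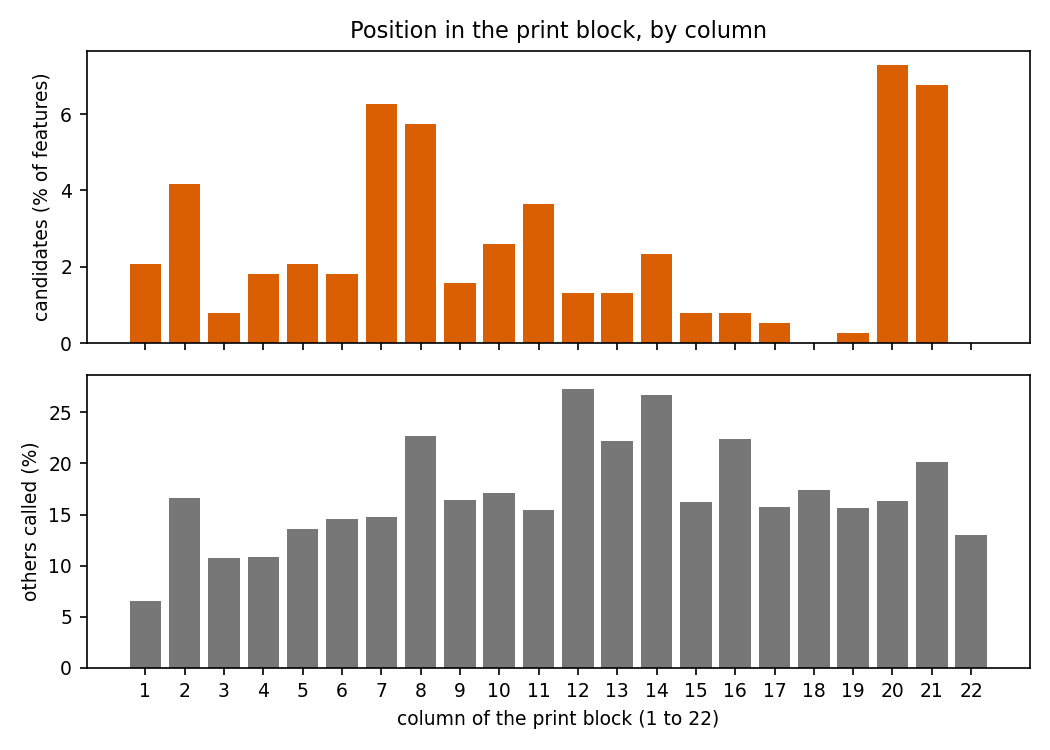
Candidates as a share of the features in each column of the print block (upper bars, %) and the share of other features called in the pooled comparison (lower bars, %). Columns 20, 21, 7, 8 and 2 stand out above, and columns 12 and 14 below.

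Features printed next to a candidate were called with its sign more often than features beside no candidate, a difference that was not tested. Beside a positive candidate 17.5% of features were called positive and 7.47% negative, and beside a negative candidate 7.31% were called positive and 10.6% negative. Beside no candidate the shares were 11% and 6.11%. The medians were 0.10, -0.12 and 0.05 in the same order, all small beside the differences of the candidates.

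The series was titled as an evaluation of ways to identify genes, so the candidates were counted at the top of 3 rankings, in fits of these 12 arrays alone. Ranked by the absolute difference, the first 100 features held 89 candidates when both amounts were pooled. Ranked by the moderated t of limma they held 81, and by the ordinary t 74. The candidates had themselves been chosen by the size of their mean at 2 pmol, with no use of the spread, which favours the ranking by difference, so these counts describe the lists and do not compare the methods. The counts fell in the same order at each amount apart, with 87, 82 and 71 candidates at 0.15 pmol and 89, 84 and 76 at 0.2 pmol, over the same 0 pmol arrays. The median standard error of the first 100 features was 0.31 by absolute difference, 0.25 by moderated t and 0.23 by ordinary t in the pooled fit. The pooled counts lay within 3 of those at each amount alone.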

How the data were processed

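The authors deposited 1 log2 ratio per spot for each of the 51 arrays, and scanner intensities were not used here. Their background correction and normalisation are not given in the sources used here, and the log base was read from the values. Values of 16.61 or more were treated as missing. Each array was centred on the median of its spots that are not controls, and paired spots 22 positions apart were averaged. Averaging gave 8448 probes, and 528 control probes were left out, leaving 7920 features, of which 5348 have 1 gene symbol. Names were updated with RefSeq GRCm38.p6 (10766 of 16896 spots matched). Features were tested in R 4.3.3 with limma 3.58.1 (files read with version 1.17.8 of data.table), in a single model over the 51 arrays (a mean for each amount, moderated by empirical Bayes), with two-sided tests and Benjamini-Hochberg adjustment over all features tested. Spiked groups needed 2 measured arrays per amount and unspiked ones 2. Separations were compared by exact permutation of arrays in Python 3.11.15 with scipy 1.17.1, numpy 2.4.6 and pandas 2.3.3, and plots were drawn with matplotlib 3.10.9. The limma fit was tried on simulated data with independent noise and no array sets, so that trial does not cover the part of array sets. Named genes are, for the pooled comparison, the 12 called features farthest up and the 12 farthest down with one sign on every measured spiked array (at most 2 without a symbol each way), 4 each way for each amount apart, 3 each way against 0.1 and 0.25 pmol, 4 uncalled candidates and 4 other features each way, 3 others each way whose 0 pmol mean lies farthest from 0, list members and other probes of these genes. Smpd4, Hk2, Eif4a2, Zfp688, Zfp655 and the second probes of Fem1c and Cald1 were named after their values were seen. The candidates, lists and comparisons were chosen with earlier results of these data known.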

Additional observations from a re-analysis of the deposited data

Results flagged for a closer look

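Within the 6 arrays at 0 pmol, 9 of 96 sets of values held an array far from the other 5, where chance flags about 1 in 20. Prpf18 at spot 13072 was at -0.75 on replicate 2, and Krt13 at -0.30 on replicate 1. Iqgap2 at spot 10827 was at -0.67 on replicate 2, and Galnt13 at spot 11444 at 1.06 on replicate 6. Zfp644 at spot 9215 was at -2.73, Dact1 at spot 1729 at -0.93, Ino80 at -0.35 and Edem3 at -4.39, all on replicate 3. The 0 pmol value of Edem3 on that array lay below every spiked array. Tmx3 was at 2.66 on 0 pmol replicate 4, within its spiked range of 0.93 to 4.94, and the other 5 arrays at 0 pmol lay between -0.28 and 0.01.

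Between 0.15 and 0.2 pmol together and 0.1 pmol, 164 features differed by limma adjusted p. The largest differences were those of Tmx3 (3.21), Las1l (3.00) and Usf1 (2.43) above, and those of spot 6345 (-2.53), Dact1 at spot 5478 (-2.50) and spot 12850 (-2.44) below. Spot 12850 ranged from -4.0 to 0.46 over the 5 spiked arrays that measured it.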

How the results depend on the processing

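The pooled count of 1523 was 389 without centring, 3041 with array weights, 652 against 0 pmol replicates 1 to 3 alone and 135 with array set as a term. The 845 at 0.15 pmol became 390, 3066, 433 and 78 under these 4 settings. The 704 at 0.2 pmol became 181, 2373, 352 and 105, and also 1125 in a fit of the 12 arrays alone and 1156 against 0 pmol replicates 4 to 6 alone. At 0.2 against 0.15 pmol 586 passed with array weights. Against 0.1 pmol the 164 became 5 without centring, 312 with scaling, 1050 with array weights and 78 with array set, and against 0.25 pmol the 0 became 4 with array weights and 1 with array set. The 178 candidates called became 36 with array set. The causes were not tested. Leaving out single arrays gave 1184 to 1575 pooled, 381 to 865 at 0.15 pmol, 359 to 802 at 0.2 pmol, 0 to 1 at 0.2 against 0.15 pmol, 27 to 195 against 0.1 pmol, 0 to 0 against 0.25 pmol and 171 to 179 candidates. The separation difference stayed between 3.36 and 3.49 against 0 pmol. Between 0.2 and 0.15 pmol it ran from -0.31 to 0.0136, positive without 0.15 pmol replicate 1 (0.00912) or 0.2 pmol replicate 1 (0.0136), and it was 0.0146 with scaling.

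Replicate numbers did not pair the arrays: deviations at 0.15 and 0.2 pmol correlated at 0.35, -0.40 and 0.56 for numbers 1 to 3, and not every array correlated best with its own number. With the replicate block 1410 features passed pooled, 784 at 0.15 pmol, 647 at 0.2 pmol and 171 of the candidates, and no count moved by over 1.5 times. Of 2838 recomputed values of 117 named results, 2692 kept direction and side of the threshold, 122 lost and 14 gained the call, and 10 turned. With array set as a term 57 lost it, and Col5a1 (-0.28), Iglv1 (-0.24) and Emx2os (0.28) turned. Against 0, Palld (-0.36), Myo5b (-0.19), Emilin2 (-0.46), Cep97 (0.0906), Cdk6 at spot 10300 (-0.34), Sspn at spot 10136 (-0.55) and Zfp292 at spot 2524 (0.73) turned. Precision rests on 3 arrays per amount, and signal over background was not analysed here.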
